A study of Mus musculus with 10 samples.

Results

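RING finger (Rnf) and tripartite motif (Trim) genes with at least 1 m6A peak in mouse cortex and hippocampus at postnatal day 5 are described here. They were taken by name, as every gene of the wild-type (WT) or the knockout (KO) peak list whose symbol begins with Rnf or Trim followed by a number. The rule gave 77 genes, 51 named Rnf and 26 named Trim, of 8516 genes with a peak in either list. RefSeq names 154 mouse genes in this way, and 76 of these, 49.4%, had a peak. The remaining member, Rnf219, is called Obi1 there.

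Ubiquitin ligases are the last enzymes of a cascade in which an activating enzyme (E1) passes ubiquitin to a conjugating enzyme (E2), and a ligase (E3) brings the loaded E2 to its substrate. A RING domain binds the E2, and TRIM proteins add B-box and coiled-coil domains that mediate assembly. In neurons such ligases act on receptors, cytoskeletal proteins and chromatin, and they take part in axon growth, in the turnover of synaptic proteins and in the response to DNA damage. m6A is a methyl mark on adenosine in RNA, written on most mRNA sites by METTL3 with its partner METTL14.

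The WT group held 3 immunoprecipitation (IP) and 3 input libraries, and the KO group, in which Nestin-Cre deletes Mettl14, held 2 IP and 2 input libraries. Nestin-Cre acts in the neuroepithelial lineage, so microglia and vessel cells should keep Mettl14, which was not measured by cell type here. A WT peak was listed in 5 of 8 microglia markers and 7 of 8 vessel markers. The same held for 7 of 8 astrocyte markers and 6 of 8 oligodendrocyte lineage markers. The labels name both the tissue and a culture medium, and do not settle which one the RNA came from, nor are the deleted part of Mettl14 and any pooling of animals given. Of the markers examined for the labelled tissue, 9 of 14 neuronal genes and 10 of 10 forebrain factor genes carried a WT peak, while Elavl4, Dcx, Snap25, Gad1 and Gad2 carried none, which does not measure their expression. By the overlap rule given below for members, the KO list retained 11 of 23 WT peaks of neuronal markers (47.8%, interval 29.2 to 67.0), 6 of 20 of forebrain factors, 3 of 11 of astrocyte markers, 0 of 18 of oligodendrocyte lineage markers (to 17.6%), 2 of 8 of microglia markers and 3 of 10 of vessel markers. Their part in the members' values was not tested. Mettl14 had 1 WT peak and no KO peak. The values are 1 consensus peak list per genotype, so no difference between genotypes has a replicate error, no test over samples could be run and the depth of the libraries is unknown. All intervals are Wilson 95% intervals that cover counting error over peaks only. Whether a peak is listed also depends on how strongly its gene is expressed, which was not measured here, and fewer cells of a type cannot be told apart from less RNA per cell.

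Rnf and Trim transcripts lost most of their peaks in the KO list, in about the same proportion as all transcripts. Here a WT peak counts as retained if any KO peak of its strand shares 1 or more exonic bases with it, and as lost if not. The 77 genes held 131 WT peaks in 69 genes and 34 KO peaks in 28 genes. Of the WT peaks 18 were retained, 13.7% (interval 8.87 to 20.7), against 12.9% over all WT peaks. A retained peak was found in 16 of the 69 genes, 23.2%, against 20.6% over all genes with a WT peak. Every WT peak was retained in 8 of the 69 genes, 11.6%, against 6.04% over all. No KO peak was listed in 49 of the 69 genes, 71.0%, against 73.0% over all. Summed exonic peak length went from 35954 bases in WT to 5907 in KO, which is 16.4% of the WT length, against 16.6% over all genes. The members as a whole therefore stood near the background on these counts. The widest gap was in genes that retained every WT peak, which rests on 8 genes, has no interval given and was not tested. Of these 8 genes, 7 had a single WT peak. Of the 33 members with 1 WT peak these 7 are 21.2% (interval 10.7 to 37.8), against 10.5% of the WT peaks of all genes with 1 peak. That share rests on the rule of 1 shared base. With 50% or more of both peaks shared, only Rnf5, Rnf44 and Rnf220 of these 7 kept their peak. Rnf11, Rnf145, Rnf227 and Trim41 did not, and the share over all genes with 1 peak is not given for that rule.

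The 2 name families differed in how many of their genes carried a WT peak. Of the 85 RefSeq Rnf genes 48 did (56.5%), and of the 69 Trim genes 20 (29.0%). Over all 21900 protein-coding genes of the table, matched by current symbol, 34.2% had a WT peak. Among protein-coding genes alone the shares were 56.6% for Rnf (interval 45.9 to 66.8), above that background, and 29.4% for Trim (19.9 to 41.1), an interval that includes it. Many of the Trim genes without one belong to the PRY-SPRY class, in which 8 of 39 listed genes had a WT peak. This class is rich in antiviral genes, and whether that bears on their peaks was not tested. None of the RING-UIM genes (Rnf114, Rnf125, Rnf138, Rnf166), of the muscle TRIM genes (Trim54, Trim55, Trim63) or of the transmembrane TRIM genes (Trim13, Trim59) had a peak in either list. Among genes with a WT peak, 10 of 49 Rnf genes and 6 of 20 Trim genes had a retained one. The shares of WT peaks retained were 13.1% for Rnf (interval 7.47 to 21.9) and 14.9% for Trim (7.41 to 27.7). These intervals overlap, and both include the 12.9% over all WT peaks.

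**Figure D1:**
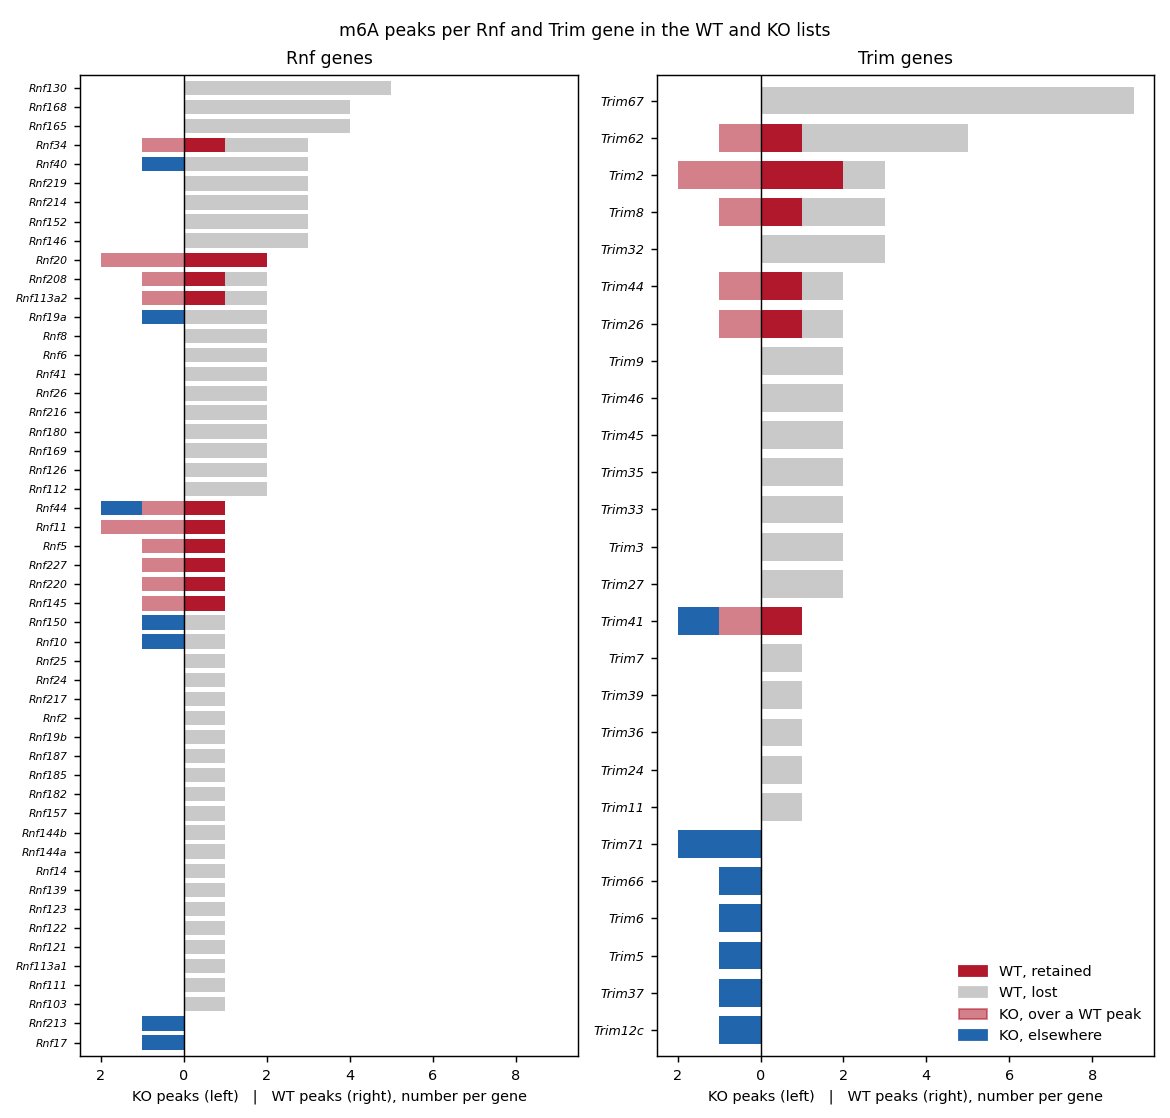
Number of m6A peaks in each of the 77 genes, with WT peaks to the right of the zero line (red retained, grey lost) and KO peaks to the left (pale red over a WT peak, blue elsewhere). Trim67, with 9 WT peaks and no KO peak, has the longest bar, and 8 genes at the foot of the panels have KO peaks alone.

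Trim9, Trim36, Trim46 and Trim67, whose proteins bind microtubules through a COS box, lost every peak. Trim67, a brain-enriched paralogue of Trim9, had 9 WT peaks over 2588 exonic bases on chromosome 8 (gene span 124791317 to 124834713, plus strand). Its widest peaks, of 511 bases each, lay at 124793438 to 124793948 and at 124829042 to 124829552. The middle exonic base of 3 peaks lay within 3469 bases of the gene start, and that of the other 6 within 5416 bases of the gene end. Trim67 was the only member with more than 5 WT peaks, and of the 19 genes in the whole list that had 9 WT peaks, 13 had a retained one. Trim9, whose protein links the netrin receptor DCC to axon branching, had 2 WT peaks of 210 and 241 bases at opposite ends of a gene of 103337 bases. Trim46, which organises parallel microtubules at the axon initial segment, had 2 (538 and 150 bases), and Trim36 had 1 of 180 bases. None of these 4 genes had a KO peak, so 0 of 14 WT peaks were retained, and 9 of the 14 lay in Trim67 alone. The interval reaches 21.5% and includes the 12.9% of all peaks.

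Among TRIM genes with NHL repeats, a propeller domain that can bind RNA, Trim2 differed from its relatives. Trim2, a ligase for neurofilament light chain, had 3 WT peaks on chromosome 3, of which 2 were retained. The retained peak nearer the gene end ran from 84163612 to 84163852 in WT (241 bases) and from 84163583 to 84163852 in KO (270 bases), so that the KO peak covered all of it. The other retained peak had 390 bases in WT and 61 in KO, and a peak of 180 bases between them was lost. Trim3, the closest relative of Trim2 and also a neuronal ligase, had 2 WT peaks of 241 and 480 bases, both in the strongest 20% of the WT list by listed p-value, and no KO peak. Trim32, which promotes differentiation of neural progenitors, had 3 WT peaks of 240, 299 and 270 bases and no KO peak. These peaks also lie within the span of Astn2 and were listed under Trim32. Trim71, a let-7 target of early embryos and stem cells, had no WT peak and 2 KO peaks, of 180 and 61 bases.

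The remaining Trim genes held both outcomes. Trim8, a modulator of cytokine signalling, retained 1 of 3 WT peaks on chromosome 19. That peak lay on 3 exonic blocks between 46502867 and 46513281 (417 bases), and the KO peak began at the same base, lay on 3 blocks and had 357 bases, while WT peaks of 447 and 507 bases on either side of it were lost. Trim44, a TRIM protein without a RING domain, retained 1 of 2. Its retained peak had 568 bases in WT, and the KO peak of 419 bases lay near the gene start and was listed at a p-value of 0, the lowest value in the file and the only such KO peak among members. Trim62, a regulator of epithelial polarity, retained 1 of 5 WT peaks on chromosome 4, the one farthest from the gene end (300 bases in WT, 180 in KO), and lost the 4 peaks between 128909208 and 128911147. Trim26 and Trim41 each retained a wide peak only in small part. In Trim26 the KO peak of 61 bases covered 7.27% of a WT peak of 839 bases, and in Trim41 a KO peak of 61 bases covered 6.79% of one of 898 bases. A second KO peak of Trim41 lay 3685 bases from its WT peak. No peak was retained in the bromodomain genes of the TIF1 group, transcriptional corepressors, where Trim24 had 1 WT peak and Trim33 had 2, nor in Trim45 with 2. Among the other PRY-SPRY genes Trim27 and Trim35 lost 2 each and Trim7, Trim11 and Trim39 lost 1 each.

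**Figure D2:**
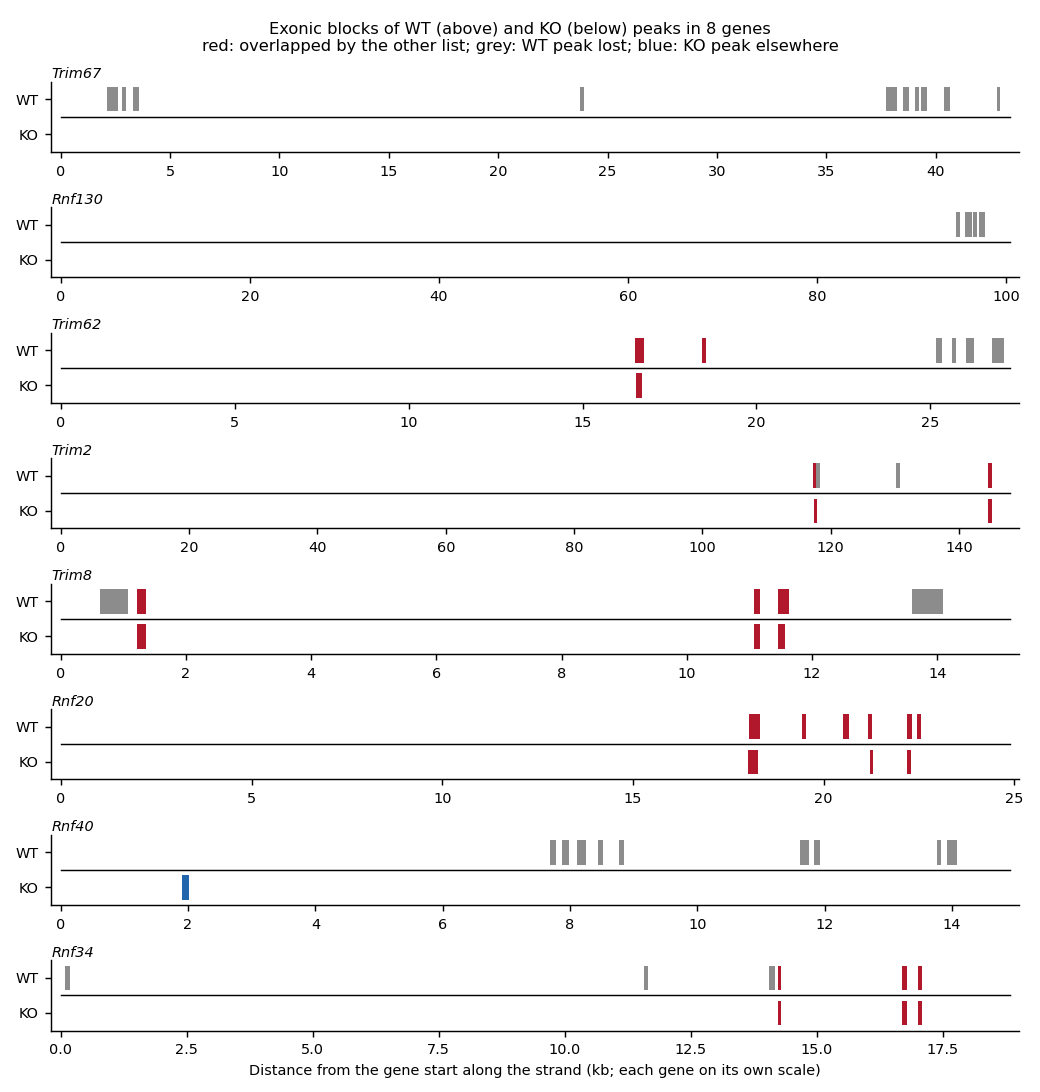
Exonic blocks of WT peaks (above the line) and KO peaks (below) in 8 genes, by distance from the gene start in kb, each gene on its own scale. Red blocks belong to peaks overlapped by the other list, grey to lost WT peaks and blue to KO peaks elsewhere, and very narrow blocks are drawn at a minimum width. Trim67 and Rnf130 have no KO block, while both WT peaks of Rnf20 have KO blocks beneath them.

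Rnf genes of chromatin and DNA damage included a pair of partners with different outcomes. RNF20 and RNF40 form a heterodimer that adds ubiquitin to histone H2B. Rnf20 retained both of its 2 WT peaks on chromosome 4. From WT to KO these had 538 and 269 bases (WT 49650056 to 49652669) and 240 and 180 bases (WT 49653181 to 49654463). Rnf40 on chromosome 7 lost all 3 WT peaks, of 448, 328 and 150 bases, and its single KO peak of 120 bases lay 5672 bases from the nearest of them. That KO peak was in the weakest 20% of its list. Rnf168, which ubiquitinates histone H2A at DNA breaks, had 4 WT peaks over 871 bases and no KO peak, and Rnf8, which acts before it, had 2 WT peaks and no KO peak. Both Rnf8 peaks were also listed under Gm28043, a readthrough transcript of Rnf8. Rnf169 lost 2 peaks, and Rnf2, the catalytic H2A ligase of Polycomb complex 1, lost 1. Over this group 2 of 14 WT peaks were retained (14.3%, interval 4.01 to 39.9), against 12.9% over all WT peaks.

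Ligases of the endoplasmic reticulum kept peaks in Rnf5 and Rnf145. Rnf5, which acts in the degradation of misfolded membrane proteins, had a single peak with the same borders in both lists (chromosome 17, 34603383 to 34603561, minus strand). It began at the first base of the gene as annotated in the RefSeq gene table. Rnf145, which takes part in the sterol-regulated turnover of HMG-CoA reductase, had the widest WT peak of all members, 988 bases on 1 block (chromosome 11, 44563935 to 44564922), of which a KO peak of 121 bases covered 12.2%. Rnf139, Rnf103, Rnf121 and Rnf185 lost 1 peak each and Rnf180, a regulator of monoamine oxidase A, lost 2. The RING-between-RING ligases had no retained peak among 9 WT peaks in 7 genes. The interval reaches 29.9% and includes the 12.9% of all peaks. The RING-between-RING genes included Rnf216, a ligase for the synaptic protein Arc, with 2 WT peaks. Rnf19a had 2 WT peaks and a KO peak 18261 bases away from the nearer one. Rnf14, Rnf144a, Rnf144b, Rnf19b and Rnf217 lost 1 each.

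Rnf130, a membrane ligase related to fly Goliath, was the Rnf gene with most WT peaks. Its 5 WT peaks (331, 151, 151, 330 and 690 bases) lay between 50120063 and 50123116 on chromosome 11, 3 of them were in the strongest 20% of the WT list, and no KO peak was listed. Of all genes with 5 WT peaks 52.7% had a retained one. The related Rnf150 had 1 WT peak of 61 bases and a KO peak of 61 bases 4196 bases away. Rnf165, a relative of the TGF-beta pathway ligase Arkadia that supports motor axon growth, lost 4 peaks over 1469 bases. Arkadia itself, Rnf111, lost its single peak of 61 bases. Rnf44 retained its single WT peak, of 211 bases, with a KO peak of 181 bases that shared its 3′ border, and had a second KO peak of 151 bases, 181 bases away from the WT peak.

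Ligases with other roles included both peaks that matched closely and peaks that were lost whole. Rnf34 on chromosome 5 retained 1 of 3 WT peaks, a peak of 208 bases on 3 blocks from 122864338 to 122867165, which had the same borders in both lists. Rnf5 and Rnf34 held the 2 member peaks with identical borders, 1.53% of 131, against 0.400% over all WT peaks. Rnf220, which acts in patterning of the neural tube, had a single WT peak of 596 bases on 7 blocks and a KO peak of 388 bases on 5 blocks inside it, the largest number of blocks among members. Rnf227, a long noncoding RNA in the gene table, went from 593 bases to 238, with the same first base. Rnf11, a partner of the A20 complex in NF-kB signalling, had 1 WT peak of 297 bases and 2 KO peaks, of which that of 90 bases lay inside it and that of 178 bases touched it by 1 base. Rnf113a2 retained 1 of 2 peaks (420 bases in WT, 180 in KO), while the related Rnf113a1 lost its single peak of 90 bases. These are close copies, so reads may be hard to assign between them, and Rnf113a2 also lies within Bbof1. Lost without any KO peak were 3 peaks each in Rnf146, which ubiquitinates the Wnt regulator axin, in Rnf152, a lysosomal ligase of the mTORC1 pathway, in Rnf214 and in Rnf219. The same held for 2 each in Rnf6, Rnf26, Rnf41, Rnf112 and Rnf126 and 1 each in Rnf24, Rnf25, Rnf122, Rnf123, Rnf157, Rnf182 and Rnf187. Rnf10 lost its WT peak and had a KO peak 25216 bases away.

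Rnf208 had 2 WT peaks and retained the one at its start. That peak had 415 bases in WT and 90 in KO and began at the same base in both lists, while a WT peak of 178 bases near the gene end was lost. The first WT peak of Rnf34, of 179 bases on 2 blocks, was lost, and it began at an annotated start, base 122850188 of chromosome 5. Unlike the starts of Rnf5 and Rnf208, this one lies 76 bases inside the gene span, which begins at 122850112. The 30 bases around that start are shown because they place the edge of a lost peak on an annotated transcript's first base (RefSeq, build GRCm38.p6, chr5:122850173-122850202, plus strand). They give 15 bases before the start and 15 from it, in lower case throughout because they hold no GGACT, a common form of the m6A motif.
Rnf34: agtgggtctcgggaggcgccgcattcgccg
In the 50 bases from the start, GGACT was found on neither strand. On the transcribed strand it was found in 5.76% of 32851 RefSeq start windows over the same 50 bases, and on the other strand in 4.87%. The absence of these letters from this window says nothing about methylation elsewhere in the peak.

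KO peaks over members were usually smaller than the WT peaks they met. The 18 retained WT peaks and the 19 KO peaks over them formed 19 overlapping pairs. In 15 of these pairs, 78.9%, the KO peak lay wholly inside the WT peak, against 76.0% of all overlapping pairs. The median share of the WT peak that was covered was 44.4%, against 44.5% over all pairs. It was at least 60% in 9 pairs and under 25% in 6. Under a stricter rule, with 50% or more of each peak in the shared stretch, 9 member peaks were retained, 6.87%, against 6.26% over all. These lay in Rnf5, Rnf20, Rnf34, Rnf44, Rnf220, Trim2, Trim8, Trim44 and Trim62. In 12 of 19 pairs (63.2%) the 5′ borders lay within 30 bases of each other, against 35.7% of all pairs, and in 4 (21.1%) the 3′ borders did, against 27.5%. This border count was chosen after the values were seen and was not tested.

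**Figure D3:**
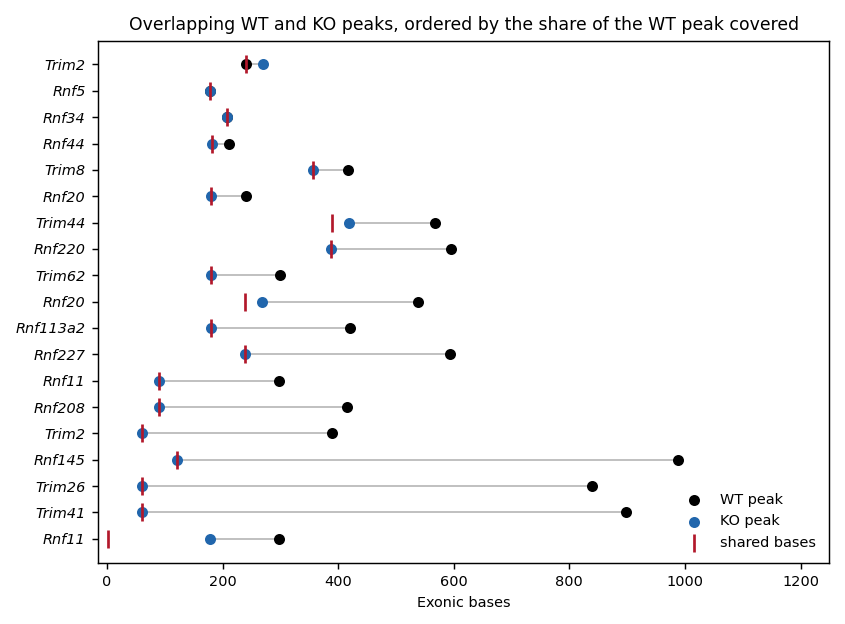
Exonic bases of the WT peak (black), of the KO peak (blue) and of their shared part (red bar) for the 19 overlapping pairs, ordered by the share of the WT peak covered. Rnf5 and Rnf34 have identical peaks, while the KO peaks of Trim41, Trim26 and Rnf145 cover small parts of WT peaks of 839 bases or more, and a KO peak of Rnf11 shares 1 base.

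Retained member peaks were wider and more often spliced in the WT list than lost ones. Their median exonic width was 416 bases (quartiles 255 and 587) against 211 bases for lost ones (121 and 330), and over all genes these medians were 359 and 181 bases. Peaks on 2 or more exonic blocks made up 61.1% of the retained and 18.6% of the lost member peaks, and 52.7% and 19.1% over all genes. No member peak of 150 bases or less was retained, 0 of 34 (interval to 10.2%), against 3.47% of all such WT peaks. The part that width alone plays in retention was not tested.

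**Figure D4:**
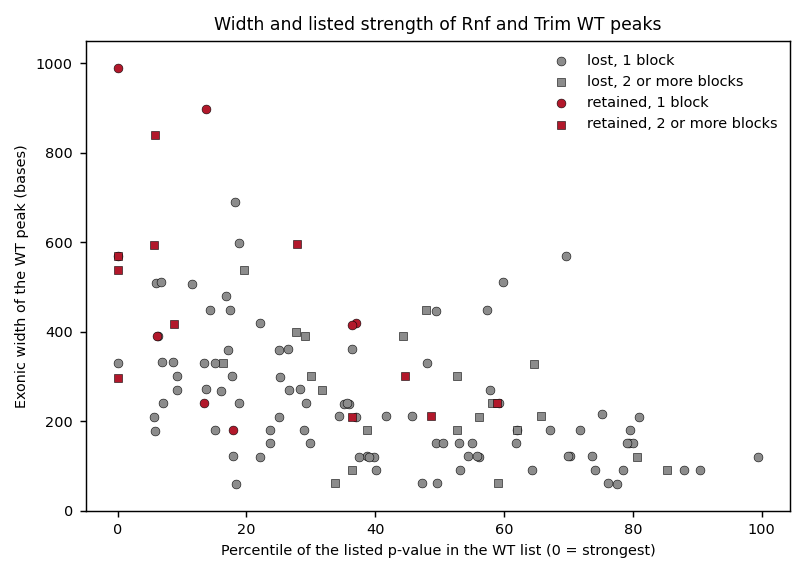
Exonic width in bases of the 131 member WT peaks against the percentile of their listed p-value in the WT list, where 0 is the strongest; red points are retained, grey points lost, circles have 1 exonic block and squares 2 or more. The 18 retained peaks have a median width of 416 bases, and none is narrower than 179 bases.

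Member WT peaks were stronger by listed p-value than the list as a whole, with 31.3% of them in its strongest 20%. Of these 41 peaks 11 were retained, 26.8% (interval 15.7 to 41.9), against 31.0% of all peaks of that class. In the next classes 4 of 34 (11.8%) and 3 of 29 (10.3%) were retained, against 14.0% and 9.49%, and in the weakest classes 0 of 20 and 0 of 7, against 6.43% and 3.54%. Within each class the member interval thus included the share over all genes. By position, 16 member WT peaks (12.2%) had their middle exonic base within 1000 bases of the gene end, among them the last Trim67 peak, against 16.5% of all WT peaks, and 1 of these 16 was retained, in the short gene Rnf113a2. The order turned with a window of 5000 bases, which held 64.9% of member and 57.2% of all WT peaks. Distances come from gene spans and do not tell coding from untranslated sequence.

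**Figure D5:**
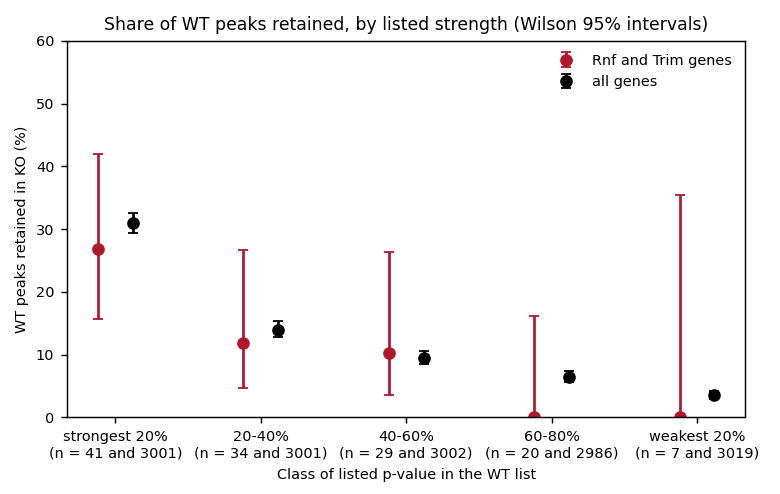
Share of WT peaks retained in the KO list, in percent, by class of listed p-value, for Rnf and Trim genes (red) and all genes (black), with Wilson 95% intervals. The shares fall from 26.8% and 31.0% in the strongest class to 0% and 3.54% in the weakest, and the red intervals include the black points.

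KO peaks were listed in 8 members without any WT peak, 10.4% of the 77, against 9.38% of all genes with a peak. Trim5, Trim6 and Trim12c, of 239, 210 and 240 bases, belong to a cluster of 11 Trim genes that spans 316567 bases of chromosome 7, in which 3 genes had a KO peak and none a WT peak. Genes of this antiviral cluster are close copies, so the gene a read came from is uncertain. Trim37, a peroxisomal and centriolar ligase, had a KO peak of 151 bases, the testis-enriched TIF1 relative Trim66 one of 91 bases, Rnf17, a germline tudor gene, one of 210 bases, and Rnf213, the giant ligase linked to moyamoya disease, one of 61 bases. Both Trim71 peaks were listed at p-values that recur across at least 30 peaks of the KO list. Such values are found in 13.2% of all KO peaks and in 2 of the 34 member peaks. Of the 34 member KO peaks 19 lay over a WT peak, 55.9% (interval 39.5 to 71.1) against 57.1% of all KO peaks, 6 lay apart from the WT peaks of their gene and 9 were in genes that had none. Among genes with a WT peak, 4 had no retained peak but a KO peak elsewhere (Rnf10, Rnf19a, Rnf40 and Rnf150), 5.80% against 6.40% over all.

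Other genes of the ubiquitin cascade were examined for comparison. The E1 gene Uba1 had 1 WT peak, which was retained, the only WT peak among 4 E1 genes. WT peaks were listed in 13 of 36 E2 genes, and 5 of these kept at least 1. Ube2ql1 retained 2 of 4 peaks and Ube2h and Ube2m 1 of 2 each, while Ube2o lost 4, Cdc34 lost 2 and Ube2j2 lost 1. The protein of Ube2m conjugates the ubiquitin-like NEDD8 rather than ubiquitin, and E2 values without it are not given. Of 27 HECT ligase genes, whose proteins carry ubiquitin themselves before passing it on, 16 carried WT peaks, and 3 of them kept at least 1. Hecw1 and Huwe1 retained 1 of 3 each, while Hectd4 lost 5 and Hecw2 and Arel1 lost 3 each. Of 91 other RING ligase genes 56 carried WT peaks, and 8 of them kept at least 1. The makorin genes were missing from this list because their symbols were misspelled, and when they were added afterwards 14 of 106 WT peaks were retained (13.2%) in place of 13 of 103. Marchf4 retained 3 of 4 and Phrf1 and Sh3rf3 2 of 5 each, while the Notch pathway ligase gene Mib2 lost 4 and Rlim and Dtx4 lost 3 each. Shares of WT peaks retained were 27.3% for E2 genes (interval 13.2 to 48.2), 12.1% for HECT genes (4.82 to 27.3) and 12.6% for other RING genes (7.53 to 20.4). Each interval overlaps that of the Rnf and Trim genes. The 12.9% over all WT peaks lies inside the HECT and other RING intervals and just below the E2 interval, with Ube2m counted. Of genes with a WT peak, 38.5% of E2, 18.8% of HECT and 14.3% of other RING genes had a retained one, against 20.6% over all. These differences were not tested.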

How the data were processed

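m6A was mapped in 10 libraries of polyadenylated RNA. Per the submitters' processing notes STAR and GRCm38 were named, with no version. Not given in the sources used here: which caller made the peaks and how it joined libraries. Deposited by the authors was 1 consensus list per genotype with positions, exonic blocks and a score, read as a p-value or q-value since all lay between 0 and 0.00015, and used to rank peaks within a list. Entries overlapping by exonic blocks on a strand were merged, which left the numbers of member peaks at 131 WT and 34 KO. Of the member WT peaks 2 were joined with an entry under another gene name. Printed coordinates count from 1. Gene spans and names came from the RefSeq table of GRCm38.p6, and all member peaks lay inside their gene. Another gene's span, on either strand, also lay over 13 WT and 2 KO member peaks. Besides Trim32, Rnf8 and Rnf113a2, this held for WT peaks of Rnf123 (Gmppb), Rnf139 (Tatdn1), Rnf180 (Gm52064), Rnf214 (Pcsk7) and Trim11 (Gm51863). It also held for the KO peak of Trim5 (LOC115486587). Shares carry Wilson 95% intervals. Overlap and merging were tested on simulated data with Python 3.11.15. No test was run, since there are no values per library. Nothing in the sources says how libraries relate to separate animals.

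Members, 24 gene lists and the alternatives were chosen with earlier results of these data known. Named in full were the 10 genes with most WT peaks, those with a retained peak and those with KO peaks alone. The cascade lists name at most 3 genes by retained peaks and at most 3, by WT peaks, that retained none. Strength classes are 5 groups of 20% by listed p-value. Some items that these rules select are not reported here.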

Additional observations from a re-analysis of the deposited data

How the results depend on the processing

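No paired analysis was possible because neither list gives a number for a single library, which also kept replicates from being left out in turn. Ignoring strand, whole spans, a gap of 100 bases, unmerged entries, the stronger 50% of each list, leaving out recurring p-values or peaks of more than 1 gene name, and adding genes by synonym kept the share of WT peaks retained (13.7%), the 16 genes and the KO share (55.9%) within their intervals or within 1.5 times. With 50% of the peak covered, 6.87% of WT peaks in 9 genes were retained, against 6.83% of all WT peaks. With 50% of both shared the values were 6.87%, against 6.26% of all WT peaks, 9 genes and 26.5% of KO peaks. With as many of the strongest WT peaks as there are KO peaks they were 24.4%, against 28.6% over all genes, 10 genes of 31 and 35.3%. Under these alternatives the gene counts and KO shares were not set against all genes. The share near the gene end, 12.2%, was 4.58% with a window of 500 bases and 64.9% with 5000, against 7.53% and 57.2% over all genes, so members lay below all genes with the narrow window and above them with the wide one. Of the 16 genes with a retained peak, 8 kept one under each alternative that gave a value. Among these 8, Rnf34, Rnf44 and Rnf220 gave a value in only 10 of the 11 alternatives. They had no WT peak left in the shortened WT list. Depth is unknown and the lists rest on unequal numbers of libraries, which limits every comparison between them.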
